A study of Mus musculus with 143 samples.

Results

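The replication-dependent histone genes were taken as every gene of the deposited count files whose symbol begins with Hist1h, Hist2h, Hist3h or Hist4h. The rule found 70 genes, among 55573 genes of the poly(A) files and 55487 genes of the RiboMinus files. They comprise 6 genes for H1, 20 for H2A, 19 for H2B, 12 for H3 and 13 for H4. In RefSeq's GRCm38.p6 annotation, which matched all 70, 67 are protein coding and 3 are pseudogenes (Hist1h2aj, Hist1h2al and Hist3h2bb-ps). The Hist1 genes on chromosome 13 number 56, of which Hist1h2al, starting at base 51200084, lies apart from the cluster of the others. The Hist2 cluster on chromosome 3 holds 10, the Hist3 genes on chromosome 11 number 3, and Hist4h4 lies alone on chromosome 6.

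RNA was sequenced from single mouse oocytes, each library being 1 oocyte. Poly(A) RNA was captured with oligo-dT beads from oocytes at the germinal vesicle stage (GV, arrested before the first meiotic division), after 3 h of culture (GV3h) and as ovulated eggs at metaphase II (MII), from controls (8 libraries at each stage) and from the Dis3 conditional knockout, Dis3cKO (15 at GV, 16 at GV3h and 16 at MII). RNA depleted of ribosomal RNA and primed with random hexamers, called RiboMinus, was sequenced from adult GV oocytes of control and Dis3cKO animals, and from p20 oocytes of control, Dis3cKO, Exosc10cKO and Dis3 and Exosc10 double knockout (dcKO) animals, with 8 libraries in each of the 6 groups. CUT&Tag peak lists, 3 per group, were made from pooled oocytes for phosphorylated RNA polymerase II and for H3K27me3. GV and GV3h oocytes were dissected from ovaries and held in M2 medium, and MII eggs came from oviducts after superovulation. The labels say that the mutants were constructed with CRISPR/Cas9 and name neither the Cre driver nor the strain; DIS3 and EXOSC10 are the catalytic ribonucleases of the nuclear RNA exosome.

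Replication-dependent histone genes supply the histones that package new DNA during S phase. Most lack introns, and their mRNA ends in a stem-loop instead of a poly(A) tail: the stem-loop binding protein SLBP and the U7 small nuclear RNP direct a cleavage just downstream of it, so an oligo-dT capture is not expected to collect the processed mRNA. A growing oocyte is arrested in meiosis and does not replicate its DNA, yet oocytes are known to store histone mRNA and SLBP for the divisions of the early embryo.

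Promoter sequence was available from RefSeq (GRCm38.p6) for 62 of the 70 genes in 63 windows, and 250 bases upstream of each start were searched on both strands for 4 motifs known from histone promoters. CCAAT or its reverse ATTGG stood in 52 of the 63 windows (82.5%), against 33.9% of all 32851 promoter windows. TATAAA or TTTATA stood in 29 (46.0%, against 12.4% of all windows), the octamer ATGCAAAT or ATTTGCAT in 14 (22.2%, against 1.60%), and AAACACA or TGTGTTT, the H1-box, in 9 (14.3%, against 6.25%). The classes differed: the H1-box was found in 5 of 6 H1 windows and in none of the H3 or H4 windows, the octamer only in H2A (7 of 18) and H2B (7 of 17) windows, and CCAAT in every H1, H2A and H2B window, in 8 of 10 H3 windows and in 3 of 12 H4 windows. Windows of divergent neighbours can overlap, as those of Hist1h2aa and Hist1h2ba do, and a site in the overlap was counted in both windows. The counts are therefore of windows and not of separate sites. A match describes the letters and is not a bound site.

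The 120 bases before the start of 6 Hist1 genes on chromosome 13 are printed because the results below turn on them: Hist1h1c, Hist1h1e, Hist1h3c and Hist1h4i are examples, chosen after their values were seen, of H1, H3 and H4 genes that rose in dcKO oocytes without overlap with controls, while the divergent neighbours Hist1h2aa and Hist1h2ba, which encode the germ-cell variants TH2A and TH2B, are abundant in oocytes and did not pass the test there. Capitals mark the 4 motifs on either strand. Hist1h1c lies at chr13:23738687-23738806 (+), Hist1h1e at chr13:23622559-23622678 (-), Hist1h3c at chr13:23745522-23745641 (-), Hist1h4i at chr13:22041363-22041482 (-), Hist1h2aa at chr13:23934317-23934436 (+) and Hist1h2ba at chr13:23934157-23934276 (-).
Hist1h1c: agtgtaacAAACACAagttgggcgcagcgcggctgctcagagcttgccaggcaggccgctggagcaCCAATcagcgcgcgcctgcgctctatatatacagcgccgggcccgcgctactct
Hist1h1e: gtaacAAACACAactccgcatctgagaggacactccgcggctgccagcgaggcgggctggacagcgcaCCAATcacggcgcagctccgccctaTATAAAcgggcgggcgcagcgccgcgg
Hist1h3c: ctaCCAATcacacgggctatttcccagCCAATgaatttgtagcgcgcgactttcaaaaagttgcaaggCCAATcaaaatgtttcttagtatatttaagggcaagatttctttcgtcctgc
Hist1h4i: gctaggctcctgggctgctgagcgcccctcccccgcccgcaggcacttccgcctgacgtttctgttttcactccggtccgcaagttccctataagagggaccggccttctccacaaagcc
Hist1h2aa: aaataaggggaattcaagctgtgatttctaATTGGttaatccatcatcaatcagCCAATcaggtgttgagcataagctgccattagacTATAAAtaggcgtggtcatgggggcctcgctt
Hist1h2ba: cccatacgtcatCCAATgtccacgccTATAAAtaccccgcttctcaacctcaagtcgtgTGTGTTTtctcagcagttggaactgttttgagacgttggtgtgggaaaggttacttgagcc
Both H1 stretches carry the H1-box far from the start with CCAAT nearer to it, and Hist1h3c carries CCAAT 3 times. None of these motifs is found in the printed stretch of Hist1h4i, whose longer searched window holds TATAAA or its reverse further upstream.

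Gene counts per library ran from 4843964 to 15412200 in poly(A) libraries (median 9510351) and from 8492102 to 35429028 in RiboMinus libraries (median 18164035). Of the 70 genes, 12 had a count in each of the 71 poly(A) libraries and 27 in each of the 48 RiboMinus libraries, 3 had no count in either assay (Hist1h2ao, Hist1h2ap and Hist1h2br), and 25 were never abundant enough to be tested. Many, but not all, copies within a class are nearly identical in their coding sequence. Another gene overlaps 5 of the 70 (Hist1h2aa, Hist1h2ba, Hist1h2be, Hist3h2a and Hist3h2ba). Counts of single copies are therefore uncertain where reads could be shared. The oocyte markers (Gdf9, Bmp15, Zp1 to Zp3 and 5 others) had counts in every group, the 5 blood markers summed to at most 1.22 counts per 1000000 gene counts (CPM), and 11 granulosa cell markers summed to between 49.8 and 205 CPM, with Ptx3 at 0 in every group except p20 Dis3cKO. Dis3 fell by 2.18 to 3.63 on the log2 scale in the Dis3cKO groups, from a lowest median of 8.80 CPM in control groups to a highest of 2.99 CPM in Dis3cKO groups, and Exosc10 fell by 5.22 in Exosc10cKO oocytes. In dcKO oocytes Dis3 fell by 2.25, from a median of 13.2 CPM in p20 controls to 2.84 CPM, and Exosc10 by 4.01, from 114.6 to 5.48 CPM. Some libraries stood apart: GV Dis3cKO library 6 was the highest of its group for 14 of 26 tested histone genes, adult Dis3cKO AM1713_1 for 25 of 38 and Exosc10cKO 2_4 for 22 of 42. In turn dcKO 2_2 was the lowest of its group for 22 of 42 and Exosc10cKO 2_3 for 21 of 42. Libraries are named by the tag and number in their titles. The labels do not say which oocytes shared an animal, so p-values measure the spread between these oocytes only. Where genes are said not to overlap between groups, the share of all tested genes without overlap is not given. Such statements describe the named genes only.

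Histone genes took a small share of the poly(A) libraries and a larger one of the RiboMinus libraries. In control GV oocytes they received 0.0198% ± 0.0031 (SD, n = 8) of the gene counts after oligo-dT capture and 0.136% ± 0.015 (SD, n = 8) in RiboMinus libraries, a ratio of 6.87 between the means, and no library of one assay reached the range of the other. The lowest RiboMinus control stood at 0.115%, against 0.0237% in the highest poly(A) control. Scaled to the ERCC RNA added to each oocyte, the log2 ratio was 4.34 instead of 2.78, but the assays received and recovered the spike-in separately.

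**Figure D1:**
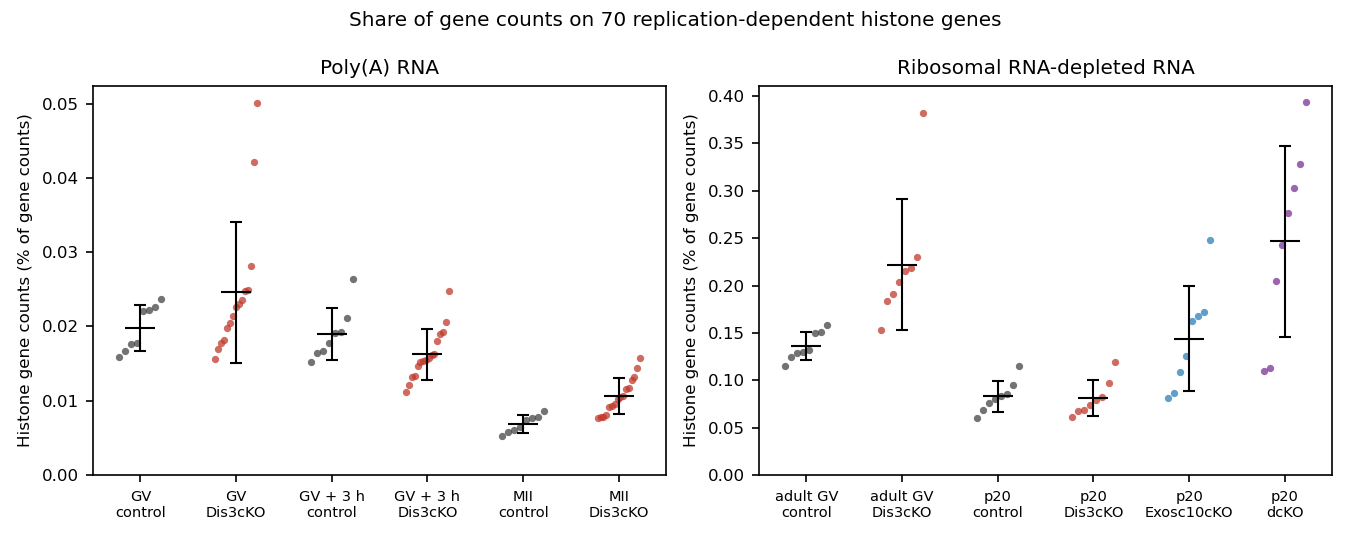
Share of gene counts that fell on the 70 replication-dependent histone genes (%) in each single-oocyte library, by assay, stage and genotype, with a separate axis for each assay; points are libraries, and bars are group means with the SD. Poly(A) groups average 0.00690% to 0.0246%, RiboMinus groups 0.0811% to 0.247%, with the p20 dcKO group the highest.

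A few genes made up most of each share, with Hist1h1a among them in both assays. In poly(A) libraries of control GV oocytes Hist1h2bc, an H2B gene, took 47.4% ± 6.2 (SD, n = 8) of the histone counts, the linker histone gene Hist1h1a (H1.1) 8.49% and the H2B gene Hist3h2ba 7.78%. In RiboMinus libraries of adult control GV oocytes Hist1h1a took 34.7% and the H3 gene Hist1h3f 22.5%. Per kilobase of gene span, which allows a comparison between genes, and among genes spanning less than 1000 bases, the highest poly(A) levels in control GV oocytes were those of Hist3h2ba (33.6 CPM per kb), Hist1h2aa (27.4) and Hist3h2a (24.7). The highest RiboMinus levels in adult controls were those of Hist1h1a (639 CPM per kb), Hist1h3f (341) and Hist1h2ba (185). Hist1h2bc spans more than 1000 bases and was left out of the per-length ranking.

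The assays were set side by side in control GV oocytes: adult RiboMinus against GV poly(A), which differ in kit and priming and not only in the tail. Of the 33 histone genes tested, 26 were higher in RiboMinus libraries and 4 lower (edgeR, adjusted p under 0.05), where 28.3% of the 16074 genes tested were higher and 35.7% lower. The median log2 difference of the histone genes was 3.17, against -0.15 over all genes. All 4 tested H1 genes, 8 of 9 H4 genes and 6 of 7 H3 genes were higher, as were 4 of 5 H2A and 4 of 8 H2B genes. Of those higher, Hist1h2ag, Hist1h2ah, Hist1h3c, Hist1h3e, Hist1h4b, Hist1h4n and Hist2h3b were too low to be tested in the poly(A) fit. A gene that entered only through the assay where it was high had to differ. These counts therefore describe the family and do not test it.

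Among the linker histones, Hist1h1a had 378 to 595 CPM (median 442) in RiboMinus and 12.8 to 22.3 CPM (median 14.4) in poly(A) libraries, a log2 difference of 5.04 ± 0.24 (SE, adjusted p = 8.67e-22). The ranges lie far apart. Among core histone genes higher in RiboMinus libraries, those with the widest gap were both for H3. Hist1h3a stood at 35.3 to 65.9 CPM (median 54.9) against 0 to 1.03 CPM (median 0.218), a log2 difference of 7.38 ± 0.63 (adjusted p = 1.09e-13). Hist1h3f stood at 221 to 399 CPM (median 308) against 2.65 to 5.15 CPM (median 4.18), a difference of 6.45 ± 0.21 (adjusted p = 4.19e-27). Next came the H2B genes Hist1h2bj (5.13 ± 0.25) and Hist1h2ba (4.87 ± 0.28) and the H4 gene Hist1h4a (4.75 ± 0.32). They completed the 6 largest differences among genes higher in RiboMinus libraries, each without overlap between the assays.

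The 4 genes that were higher after oligo-dT capture came from each cluster but Hist4. Hist2h3c1, an H3 gene, had 1.60 to 4.27 CPM (median 2.90) in poly(A) libraries and no count in the 8 adult RiboMinus controls, at least 207-fold lower with 3 counts over the RiboMinus group as the floor. It had a count in each of the 71 poly(A) libraries and in 0 of the 48 RiboMinus libraries of any genotype or age, and since the counting of reads shared with near-identical copies is not given, the 0 describes the deposited count and not the RNA level. Hist3h2a was at 5.77 to 24.6 CPM (median 11.6) after oligo-dT capture and 0.115 to 0.917 CPM (median 0.418) in RiboMinus libraries, a log2 difference of -4.55 ± 0.42 (adjusted p = 1.01e-12). Hist3h2ba and Hist1h2bc followed with -1.86 ± 0.28 and -1.48 ± 0.18. None of these 4 overlapped between the assays. In RefSeq Hist3h2a overlaps the gene Trim17 and Hist3h2ba the gene Gm51864, so their counts are uncertain where reads could be shared. With ERCC scaling 29 genes were higher and 2 lower, while the median of all genes moved to 1.21.

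Replacement histone genes, whose mRNA is polyadenylated, gave a comparison outside the family. Of 11 tested, 8 were lower in RiboMinus libraries and 2 higher, with a median log2 difference of -1.20. H2afv, a gene of the H2A.Z type, was lower by the largest amount (-2.42), and the linker histone gene H1fx (3.40) and H2afx (1.12), which has transcripts with either kind of 3' end, were higher.

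**Figure D2:**
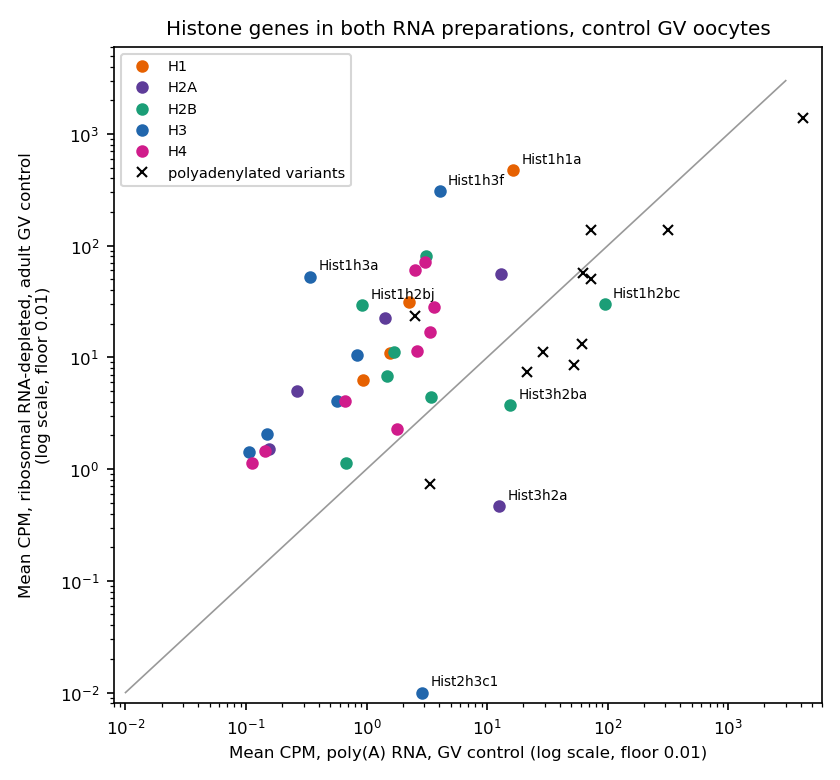
Mean level of each tested histone gene (CPM, log scale) in RiboMinus libraries of adult control GV oocytes against poly(A) libraries of control GV oocytes, coloured by histone class, with replacement histone genes as crosses and a line of equal levels. Hist1h3a, Hist1h3f and Hist1h1a lie far above the line, and Hist2h3c1, drawn at the lower edge of the plot because it had no RiboMinus count, Hist3h2a, Hist3h2ba and Hist1h2bc lie below it.

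At p20, the RiboMinus data show whether loss of each exosome nuclease, or of both, moved the histone RNAs of growing oocytes. The dcKO group had the highest share, 0.247% ± 0.1005 (SD, n = 8; range 0.1102% to 0.394%), against 0.0829% ± 0.0168 (range 0.0600% to 0.115%) in p20 controls, a ratio of 2.98. Exosc10cKO oocytes averaged 0.144% ± 0.055 (ratio 1.74) and Dis3cKO oocytes 0.0811% ± 0.0189 (ratio 0.979), close to controls. In each of the 3 mutants some libraries lay within the control range. Within dcKO the 4 libraries of title tag 1 (0.326% ± 0.050) and the 4 of tag 2 (0.168% ± 0.066) differed; what a tag stands for is not given in the labels.

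The H1 share went from 0.0257% in p20 controls to 0.0709% in dcKO oocytes and the H3 share from 0.0190% to 0.0859%. Of 42 histone genes tested at p20, 28 were higher in dcKO than in control oocytes and 0 lower, where 26.6% of the 15882 genes tested were higher and 27.1% lower. Their median log2 fold change was 1.93, against -0.01 over all genes. A gene that entered the test only because it was high in one group had to differ, so these counts describe the family and do not test it. With ERCC scaling 27 were higher and 0 lower, with tag 1 only 34 of 48, and with tag 2 only 21 of 45. The share of all genes called in these alternative fits is not given here.

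All 5 tested H1 genes were called higher in dcKO oocytes, although the median of Hist1h1b was lower there. Hist1h1e (H1.4) stood at 6.80 to 129 CPM (median 58.6) against 0.1098 to 6.55 CPM (median 3.19) in controls, with a log2 fold change of 4.07 ± 0.55 (SE, adjusted p = 2.08e-07). Hist1h1c (H1.2) stood at 12.4 to 128 CPM (median 99.3) against 3.19 to 9.54 CPM (median 5.68), a change of 3.52 ± 0.42 (adjusted p = 1.99e-08), and Hist1h1d (H1.3) changed by 2.83 ± 0.31. For Hist1h1e, Hist1h1c and Hist1h1d the lowest dcKO oocyte was above the highest control. Hist1h1a, the most abundant, changed less, by 0.74 ± 0.24 from a control median of 241 CPM to 437 CPM, and its groups overlapped. Hist1h1b (3.04 ± 1.13, adjusted p = 0.0231) rested on 3 dcKO libraries above every control, while the other 5 lay below every control. Its median was 0.0812 CPM in dcKO and 0.157 CPM in control oocytes.

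The H3 genes included the largest change among well-counted members. Hist1h3c had 26.0 to 282 CPM (median 162) in dcKO and 0.436 to 5.40 CPM (median 1.30) in control oocytes, a log2 fold change of 6.12 ± 0.59 (adjusted p = 2.86e-10). Every dcKO library was far above every control; the tag 1 libraries averaged 236 CPM and the tag 2 libraries 95.4 CPM. Hist1h3a, abundant in controls already at 25.5 to 61.1 CPM (median 37.0), reached 107 to 714 CPM (median 312), a change of 2.89 ± 0.34 without overlap. Together 5 of 7 tested H3 genes rose, Hist1h3e and Hist1h3g by 3.55 ± 0.47 and 3.34 ± 0.48, while Hist1h3b (adjusted p = 0.0531) and Hist2h3b (0.746) did not pass.

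**Figure D3:**
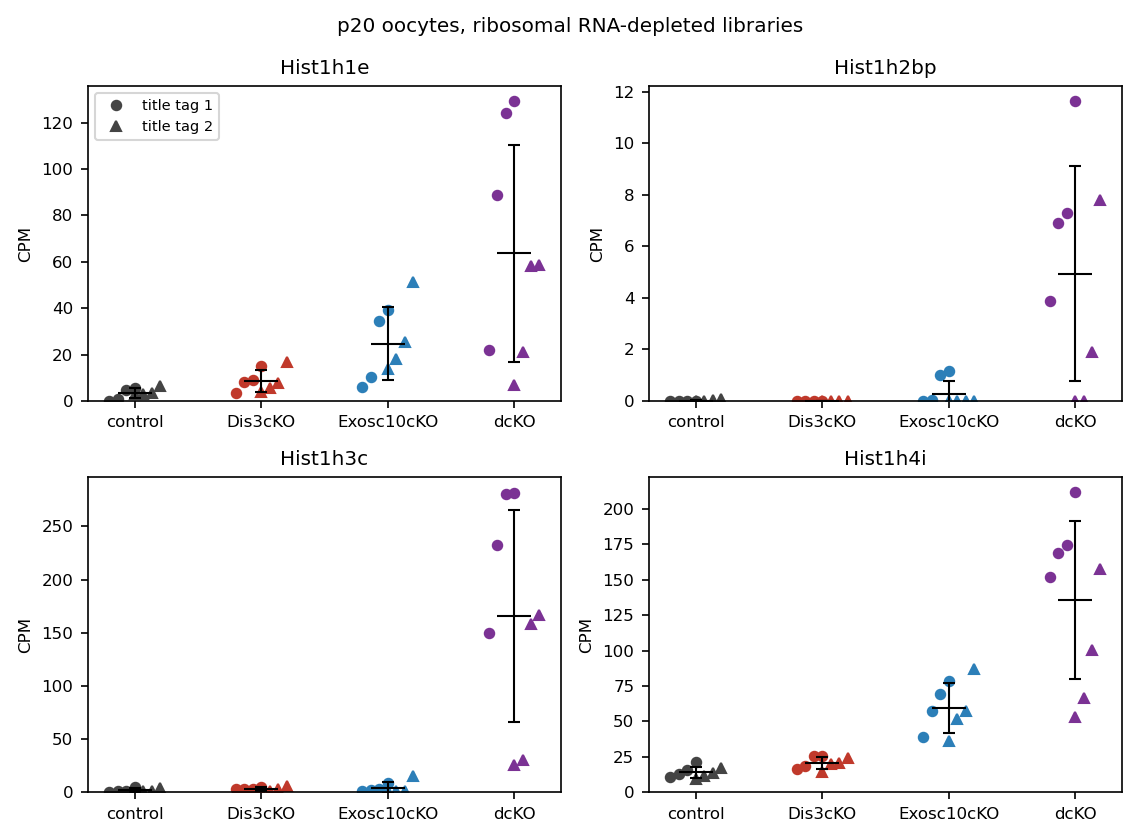
Level (CPM) of Hist1h1e, Hist1h2bp, Hist1h3c and Hist1h4i in each p20 RiboMinus library of control, Dis3cKO, Exosc10cKO and dcKO oocytes; each point is 1 oocyte, circles are title tag 1, triangles tag 2, and bars are means with the SD. For Hist1h3c all 8 dcKO oocytes (26.0 to 282) lie above all controls (0.436 to 5.40).

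Of the H4 genes 6 of 10 rose. Hist1h4i stood at 53.5 to 212 CPM (median 155) against 9.51 to 21.6 CPM (median 13.3), a log2 fold change of 3.09 ± 0.23 (adjusted p = 9.48e-13), and Hist1h4h at 15.7 to 91.3 CPM (median 51.0) against 4.62 to 6.85 CPM (median 6.24), a change of 2.95 ± 0.27 (adjusted p = 1.13e-10). Neither gene overlapped between the groups. Hist4h4, which lies outside the clusters and was abundant in controls (77.8 to 128 CPM), stood at 90.5 to 128 CPM in dcKO oocytes, a difference of -0.09 ± 0.15 (adjusted p = 0.626).

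Of the H2A genes 4 of 8 rose, and of the H2B genes 8 of 12. Hist1h2ac stood at 30.4 to 131 CPM (median 88.3) against 14.6 to 21.9 CPM (median 17.6), a change of 2.07 ± 0.26 without overlap, and Hist1h2bh at 12.4 to 43.9 CPM (median 25.2) against 3.53 to 8.44 CPM (median 6.61), a change of 1.92 ± 0.25, also without overlap. The germ-cell pair differed from these: Hist1h2aa was at 26.0 to 84.1 CPM (median 66.8) against 40.1 to 67.6 CPM (median 62.4), a difference of -0.02 ± 0.20 (adjusted p = 0.929), and Hist1h2ba at 48.2 to 131 CPM against 27.9 to 116 CPM, a difference of 0.44 ± 0.28 (adjusted p = 0.195). Hist1h2bp went from 2 counts over the 8 controls to 485 counts over the 8 dcKO libraries, a ratio of 374 relative to gene counts (95% exact interval 103 to 3095, for counting error only), and was at 0 in some dcKO libraries. The span RefSeq gives it is over 1000 bases long.

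By location, 26 of 33 tested Hist1 genes were called higher in dcKO oocytes, 1 of 5 Hist2 genes (Hist2h2ab), 1 of 3 Hist3 genes (Hist3h2ba) and 0 of 1 Hist4 genes. The difference between locations was not tested. Granulosa markers summed to 122 to 181 CPM in p20 controls and 132 to 205 CPM in dcKO oocytes, and 10 S-phase genes (among them Pcna, Mcm5 and Rrm2) to 1559 to 1698 CPM and 1270 to 1578 CPM. Their part in the histone result was not tested.

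The single knockouts moved fewer histone genes. In Exosc10cKO oocytes 12 of 42 were higher and 1 lower than in controls, where 3.95% of all genes were higher and 3.5% lower, and all 13 lie in the Hist1 cluster. Among the genes that passed, Hist1h3e changed most, with a log2 fold change of 3.30 ± 0.46 (adjusted p = 5.13e-06). It went from 0.384 to 2.09 CPM (median 0.835) in controls to 1.66 to 16.4 CPM (median 9.51), with 7 of 8 mutant oocytes above every control. Hist1h3e thus overlapped with controls. Without overlap were Hist1h4i (36.2 to 86.9 CPM, 2.03 ± 0.22, adjusted p = 3.14e-08), Hist1h4h (8.93 to 30.5 CPM, 1.89 ± 0.26) and Hist1h1d (25.6 to 75.3 CPM, against 6.81 to 25.1 CPM, 1.73 ± 0.30). The share of all tested genes without overlap is not given here. Hist1h4b (2.86 ± 0.58), Hist1h1e (2.82 ± 0.53), Hist1h3g (2.52 ± 0.46) and Hist1h4d (2.47 ± 0.49) also rose, and the H2B gene Hist1h2bj fell by 0.69 ± 0.18 (adjusted p = 0.011).

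In p20 Dis3cKO oocytes 2 of 42 histone genes were higher and 3 lower, where 3.61% of all genes were higher and 3.76% lower, a share not far from that of all genes. Hist1h3e stood at 1.69 to 8.41 CPM (median 5.38), a change of 2.52 ± 0.46 (adjusted p = 0.000198), and Hist1h3g changed by 1.501 ± 0.46. Hist4h4 fell by 0.97 ± 0.15 to 37.0 to 79.7 CPM (median 51.6), from 77.8 to 128 CPM (adjusted p = 2.86e-05), and Hist1h4c fell by 1.30 ± 0.29 and Hist1h2bj by 0.67 ± 0.18. With ERCC scaling 1 was higher and 4 lower, and with counts summed per tag only 2 of 54 tested passed.

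The double knockout was also set against each single one; these comparisons use the same 8 dcKO libraries as the one with controls. Against Dis3cKO 33 of 42 histone genes were higher in dcKO and 0 lower, where 26.0% of all genes were higher and 25.5% lower. Against Exosc10cKO 23 were higher and 0 lower, where 24.2% of all genes were higher and 25.0% lower. Here too a gene that entered the test only because it was high in dcKO had to differ. Both counts describe the family and do not test it. Hist1h3c exceeded Dis3cKO (1.23 to 6.08 CPM) by 5.52 ± 0.57 and Exosc10cKO (1.03 to 14.99 CPM) by 5.09 ± 0.55 on the log2 scale, without overlap with either. Hist1h1c exceeded them by 4.13 ± 0.44 and 3.53 ± 0.42, and Hist1h2bj, lower than control in both single knockouts, by 1.72 ± 0.18 and 1.73 ± 0.18. Hist1h2bp had no count in the 8 Dis3cKO libraries, so its dcKO level was at least 170-fold higher, again with 3 counts over the group as the floor. With tag 2 alone 20 genes were higher and 1 lower than in Dis3cKO, and 8 higher and 1 lower than in Exosc10cKO.

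**Figure D4:**
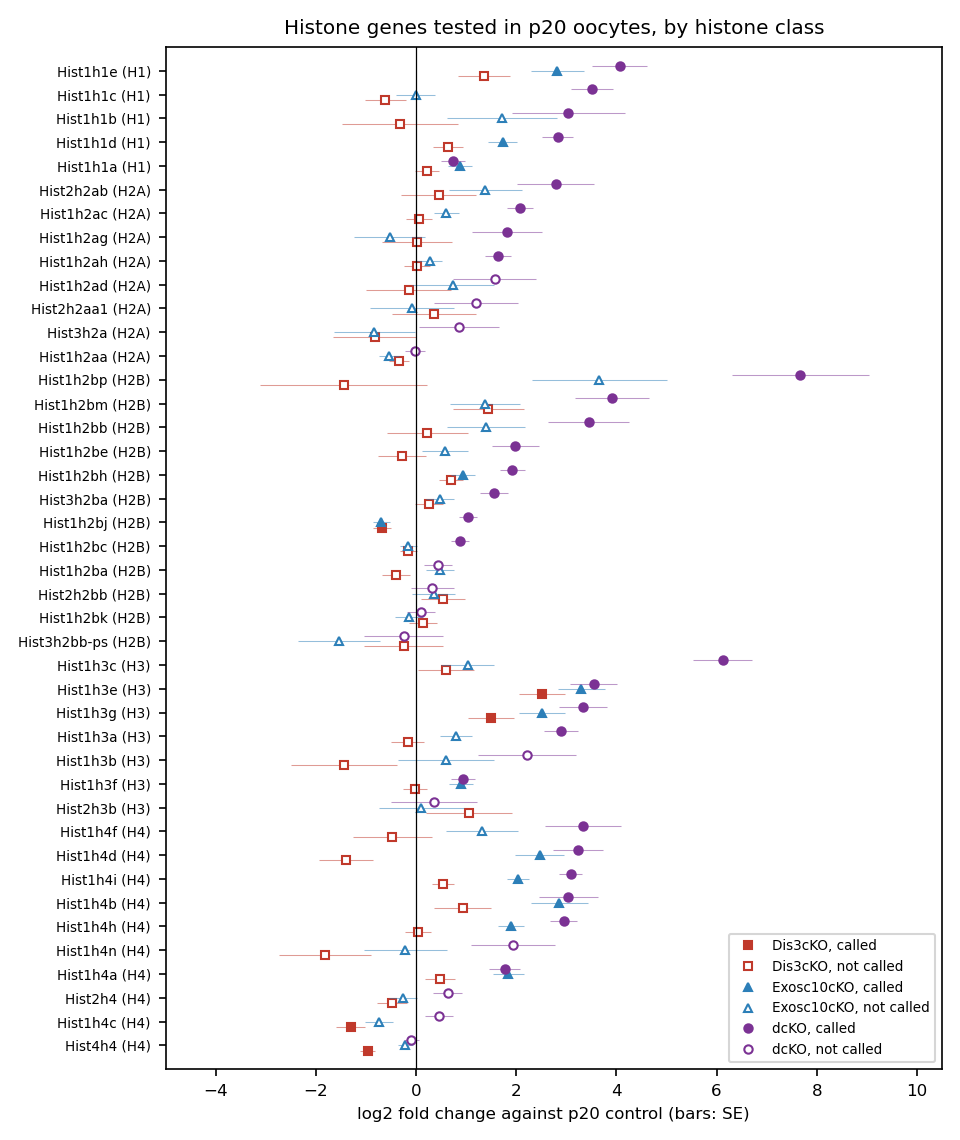
Log2 fold change against p20 controls of each histone gene tested in RiboMinus libraries of Dis3cKO, Exosc10cKO and dcKO oocytes, by class, with standard errors from edgeR; filled points passed an adjusted p of 0.05. The 3 comparisons share the same 8 controls; 2 genes were higher in Dis3cKO, 12 in Exosc10cKO and 28 in dcKO.

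In adult GV oocytes the RiboMinus share was 0.222% ± 0.069 (SD, n = 8; range 0.153% to 0.382%) in Dis3cKO and 0.136% ± 0.015 (range 0.115% to 0.158%) in controls, a ratio of 1.63, with the lowest mutant just inside the control range. Scaled to ERCC the log2 ratio fell from 0.71 to 0.029. Of 38 histone genes tested, 7 were higher and 2 lower, where 15.7% of all genes were higher and 12.4% lower. The call split turned with the scaling: with ERCC 2 were higher and 9 lower, when the median of all genes was -0.52. With counts summed over the 2 title tags of each group, 0 of 49 passed in edgeR (9 had an unadjusted p under 0.05).

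Hist1h1e changed most, from 2.64 to 37.6 CPM (median 6.08) in adult controls to 16.9 to 142 CPM (median 97.8) in Dis3cKO, a log2 fold change of 2.90 ± 0.54 (adjusted p = 0.000574), with 6 of 8 mutant oocytes above every control. Of the H3 genes, Hist1h3g stood at 17.0 to 59.4 CPM against 5.77 to 16.1 CPM (1.36 ± 0.22, adjusted p = 0.000196) and Hist1h3f at 455 to 1007 CPM against 221 to 399 CPM (0.88 ± 0.16), both without overlap. Hist1h1a, the most abundant gene of the family, rose by 0.80 ± 0.15. Hist1h3c (1.94 ± 0.69) lost its call without library AM1713_1 (adjusted p = 0.098). Hist1h2bc fell by 0.66 ± 0.14 and Hist1h2aa by 0.60 ± 0.15.

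Hist4h4 followed the title tag more than the genotype in adult oocytes. It ran from 104 to 112 CPM in controls of tag AM1758 and from 31.2 to 43.1 CPM in controls of tag AM1759. In Dis3cKO it ran from 68.7 to 196 CPM under AM1713 and from 22.1 to 37.7 CPM under AM1757, so each genotype held a high and a low set of 4 oocytes.

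After oligo-dT capture, the share in GV oocytes was 0.0246% ± 0.0095 (SD, n = 15) in Dis3cKO and 0.0198% ± 0.0031 in controls, and the ranges overlapped. The log2 ratio of the means was 0.31, and it was larger without Hist1h2bc, whose own change was -0.76 (edgeR, adjusted p = 0.0542). Of 26 histone genes tested, 9 were higher in Dis3cKO and 0 lower, where 13.6% of all 17389 genes were higher and 8.33% lower; the median log2 fold change was 0.71 against 0.04 over all genes. With ERCC scaling 6 were higher and 1 lower. The number of calls depended on the library numbers: with those numbered 1 to 8 alone 14 of 25 genes passed, all higher, and with the 7 numbered above 8 alone 1 was higher and 1 lower. Without libraries 6 and 8, which stood high for several genes, 8 were higher and 1 lower. Fitted on only the groups compared, 14 were called instead of 9. The share of all genes called in these alternative fits is not given here. The counts therefore do not set histone genes apart from other genes.

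Of the H1 genes, Hist1h1e stood at 3.32 to 14.9 CPM (median 4.53) in GV Dis3cKO against 0.217 to 2.52 CPM (median 1.61), a log2 fold change of 1.68 ± 0.36 (adjusted p = 0.000249) without overlap. Its change was alike in both sets of library numbers, 1.68 with 1 to 8 alone and 1.69 with those above 8 alone, each past the test. The H3 gene Hist1h3g was the other without overlap, at 1.60 to 15.04 CPM (median 2.58) against 0.114 to 1.55 CPM (median 0.794), a change of 2.10 ± 0.47 (adjusted p = 0.000387). Hist1h3a (2.60 ± 0.63), Hist1h4i (1.89 ± 0.45), Hist1h4c (1.59 ± 0.34) and Hist1h4h (1.34 ± 0.37) rose with overlap. The values of other genes moved with the set of library numbers, a difference that was not tested: with 1 to 8 alone against above 8 alone, Hist1h3g changed by 2.57 and 1.27, Hist1h3a by 3.09 and 1.75, Hist1h4c by 2.02 and 0.86 and Hist1h4h by 1.69 and 0.81, and none of these 4 passed with those above 8 alone (adjusted p from 0.0604 to 0.238). Hist1h4i was uneven too, at 2.42 to 59.6 CPM under numbers 1 to 8 and 5.57 to 8.73 CPM above 8.

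After 3 h of culture 5 of 26 histone genes were higher in Dis3cKO and 2 lower, where 22.9% of all genes were higher and 15.7% lower. With ERCC scaling 4 were higher and 3 lower. A fit on only the groups compared called more genes, with the count given under the processing. Hist1h2bc stood at 18.9 to 52.5 CPM (median 30.4) in 16 mutant oocytes against 61.8 to 127 CPM (median 79.8) in 8 controls and fell by 1.52 ± 0.29 (adjusted p = 1.92e-05), with no overlap. Hist1h2aa fell by 0.66 ± 0.22. Hist1h3g (1.72 ± 0.45) and Hist4h4 (1.72 ± 0.51) rose most, followed by Hist1h1e (1.49 ± 0.35). Hist4h4 again split by number, 6.33 to 12.6 CPM in numbers 1 to 8 against 0.163 to 4.75 CPM above 8, and its log2 fold change with numbers above 8 alone was -0.20.

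In MII eggs 11 of 26 histone genes were higher in Dis3cKO and 1 lower, where 27.3% of all genes were higher and 14.8% lower. Of the 7 tested H4 genes 5 were higher. Hist4h4 stood at 3.07 to 18.3 CPM (median 5.66) in 16 mutant eggs against 0 to 0.609 CPM (median 0.145) in 8 controls, which is a log2 fold change of 4.98 ± 0.65 (adjusted p = 2.65e-09). Hist1h4h stood at 0.641 to 8.71 CPM against 0 to 0.613 CPM (3.92 ± 0.48) and Hist1h4a at 0.722 to 3.02 CPM against 0.180 to 0.525 CPM (2.21 ± 0.32). Hist4h4, Hist1h4h and Hist1h4a did not overlap between the groups, in either set of library numbers for Hist4h4 (3.07 to 8.78 CPM and 4.18 to 18.3 CPM).

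A further H4 gene, Hist1h4c, rose by 1.64 ± 0.35. In the other classes Hist1h3g (1.91 ± 0.50), Hist1h2bk (1.72 ± 0.42) and Hist3h2ba (1.57 ± 0.26, adjusted p = 7.58e-07) rose, while Hist1h1a stood at 8.04 to 25.4 CPM (median 12.8) against 17.3 to 30.1 CPM (median 24.0) and fell by 0.88 ± 0.19 (adjusted p = 0.000131). Hist1h2bc varied widely among mutant eggs, 0.831 to 72.8 CPM against 6.29 to 25.7 CPM, and rose by 0.88 ± 0.32.

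**Figure D5:**
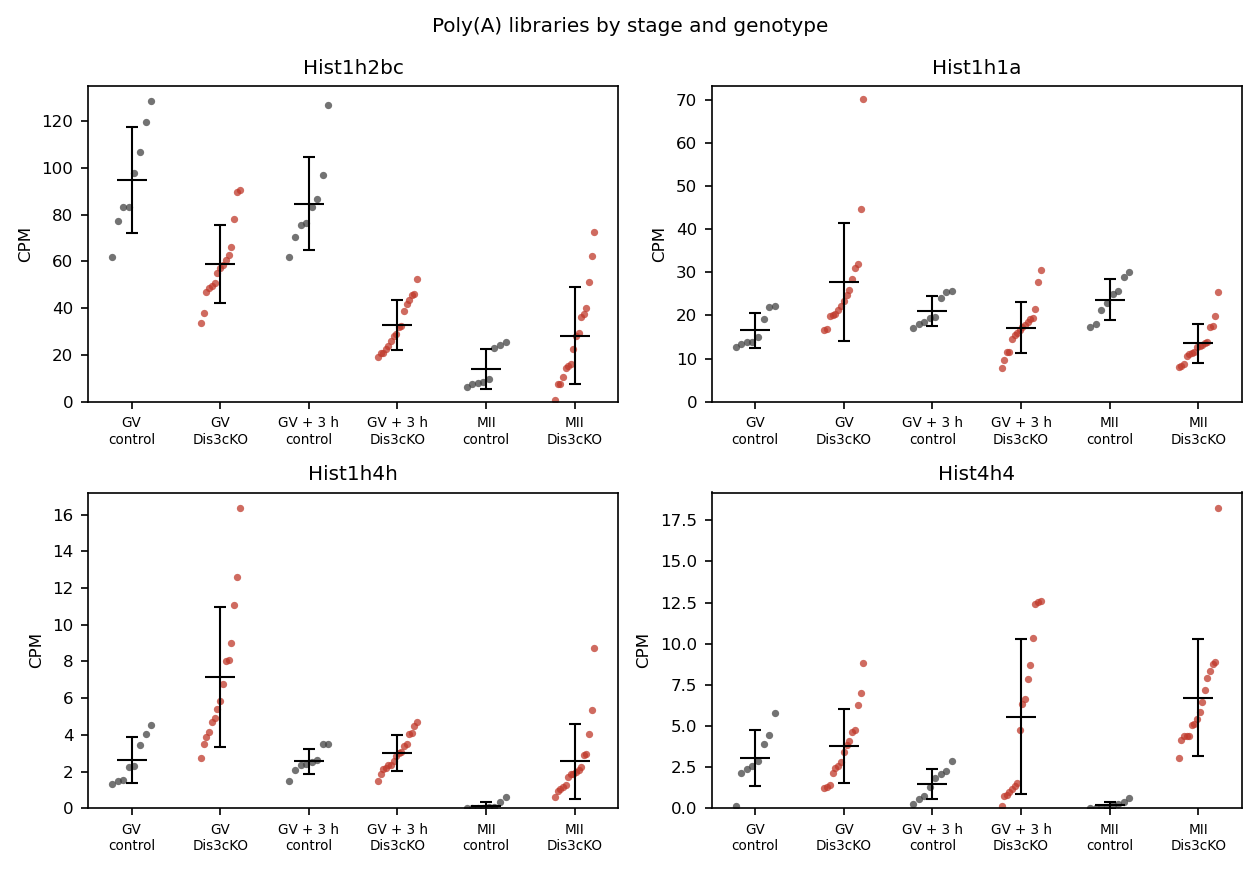
Level (CPM) of Hist1h2bc, Hist1h1a, Hist1h4h and Hist4h4 in each poly(A) library of control and Dis3cKO oocytes at GV, GV3h and MII; each point is 1 oocyte, and bars are means with the SD. In MII eggs Hist4h4 is at 3.07 to 18.3 in Dis3cKO and at or below 0.609 in controls.

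In controls the poly(A) histone share was lower in MII eggs than in GV oocytes. The share was 0.0198% ± 0.0031 at GV, 0.0190% ± 0.0035 at GV3h and 0.00690% ± 0.00118 at MII (SD, n = 8 each), and the MII and GV ranges did not overlap. The log2 ratio of MII to GV was -1.52; it was -3.10 with ERCC scaling and -0.92 without Hist1h2bc, whose mean went from 94.7 to 14.1 CPM. Granulosa markers moved with the stage: the 11 summed to 96.9 to 195 CPM (median 123) at GV and 86.2 to 129 CPM (median 93.7) at MII, with Inha at a median of 21.4 CPM against 0, Hsd17b1 at 3.36 against 0 and Fshr at 0.970 against 0, while Cyp19a1 was at 34.8 against 52.9 and Ptx3 at 0 in both. Their part in the histone result was not tested. Between GV3h and GV edgeR called 0 of 26 histone genes, where 1.14% of all genes were higher and 1.56% lower; 0 had an unadjusted p under 0.05 and DESeq2 also called 0. Between MII and GV 1 was higher and 12 lower, where 22.7% of all genes were higher and 35.8% lower, with a median log2 change of -0.89 against -0.27 over all genes. With ERCC scaling, which moved the median of all genes to -2.12, 25 were lower and 0 higher.

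Hist1h4h had 1.34 to 4.54 CPM (median 2.28) at GV and 0 to 0.613 CPM (median 0.0424) at MII and fell by 3.77 ± 0.51 (adjusted p = 1.1e-09), without overlap. Hist4h4 fell by 3.64 ± 0.66, Hist1h2bk by 3.12 ± 0.47 and Hist3h2a by 3.04 ± 0.39, from 5.77 to 24.6 CPM (median 11.6) to 0.404 to 3.01 CPM (median 1.02). Hist1h2bc stood at 61.7 to 129 CPM (median 90.4) at GV and at 6.29 to 25.7 CPM (median 9.11) at MII, and fell by 2.45 ± 0.37. Hist1h1a rose relative to other genes, from 12.8 to 22.3 CPM (median 14.4) to 17.3 to 30.1 CPM (median 24.0), by 0.80 ± 0.23, but its change was -1.04 with ERCC scaling. It took 35.3% of the histone counts in MII control eggs.

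In Dis3cKO oocytes 0 of 26 histone genes were higher and 8 lower at GV3h than at GV, where 7.42% of all genes were higher and 9.88% lower. With ERCC scaling 2 were higher and 1 lower. Hist1h1c changed most, falling by 1.52 ± 0.51, followed by Hist1h4h (1.28 ± 0.29), Hist1h4c (1.14 ± 0.26) and Hist1h4i (1.11 ± 0.34). With the libraries numbered above 8 alone, 1 gene was higher and 1 lower.

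At MII, 1 histone gene was higher and 19 lower than at GV in Dis3cKO oocytes, where 24.8% of all genes were higher and 38.5% lower. With ERCC scaling 25 were lower and 0 higher, and with numbers above 8 alone 2 were higher and 9 lower. Hist1h4i fell most, by 3.43 ± 0.37, from 2.42 to 59.6 CPM (median 8.37) to 0 to 1.81 CPM (median 1.07), and Hist1h2bh fell by 2.76 ± 0.35. Hist4h4 was the gene that rose, by 1.14 ± 0.39 (adjusted p = 0.00874), and stood at -0.15 with ERCC scaling.

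The Dis3cKO effect itself was compared between stages by an interaction term. Between MII and GV, 4 of 26 histone genes had a more positive effect at MII and 1 a more negative one, where 9.28% and 3.88% of all genes did. Hist4h4 differed by 4.78, Hist1h4h by 2.58, Hist1h2bc by 1.64 and Hist1h4a by 1.55 on the log2 scale, and Hist1h1a, higher in the mutant at GV and lower at MII, by -1.54 (adjusted p = 6.8e-05). With ERCC scaling 7 were more positive and 1 more negative. Between GV3h and GV, Hist1h1a alone differed in the fit of all groups, by -1.08 (adjusted p = 0.0264), and it lost the call with ERCC scaling. Of all genes 1.37% were more positive and 0.667% more negative. Fitted on only the groups compared, 4 histone genes were called.

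Adult GV and p20 controls were also compared in RiboMinus libraries; they differ in the age of the animals and in title tags as well as in oocyte stage, and these cannot be told apart. The share was 0.136% ± 0.015 in adult GV and 0.0829% ± 0.0168 in p20 oocytes (SD, n = 8 each), a ratio of 1.64 with overlap. Of 44 histone genes tested, 12 were higher in adult GV oocytes and 1 lower, where 8.69% of all genes were higher and 10.4% lower. This direction depended on the scaling: with ERCC 0 were higher and 24 lower, when the median of all genes was -1.69, and the log2 ratio of the share was -0.92 instead of 0.72. With counts summed per tag 2 of 58 passed.

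Relative to other genes, Hist1h1a stood at 378 to 595 CPM (median 442) in adult GV and 134 to 353 CPM (median 241) in p20 controls, a log2 difference of 1.07 ± 0.22 (adjusted p = 0.000571), and Hist1h3f at 221 to 399 CPM against 98.5 to 219 CPM (1.12 ± 0.22). Hist1h4a stood at 43.7 to 83.6 CPM against 7.36 to 30.6 CPM (1.42 ± 0.29); its difference was -0.24 with ERCC scaling. None of these 3 overlapped. Hist1h3e (2.08 ± 0.53), Hist1h4f (1.97 ± 0.68), Hist1h3g (1.94 ± 0.41) and Hist2h2bb (1.84 ± 0.40) had the largest differences, and Hist2h4 fell by 0.96 ± 0.27.

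The effect of Dis3cKO differed between adult GV and p20 oocytes for 2 of 44 histone genes, where 5.34% of all genes were more positive in adults and 3.98% more negative. Hist1h4c differed by 1.20 and Hist1h3e by -3.67. With ERCC scaling 1 passed, and with counts summed per title tag edgeR called 0 (7 with an unadjusted p under 0.05). Between the RiboMinus and poly(A) assays in GV oocytes, the Dis3cKO effect was smaller in RiboMinus for 4 of 33 histone genes and larger for 0, where 1.21% of all genes were larger and 1.08% smaller: Hist1h4c by -1.73, Hist1h4h by -1.67, Hist1h2ac by -1.46 and Hist1h2bj by -1.23. With ERCC scaling 2 were smaller.

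Factors that make, process and degrade histone mRNA were counted from a list of 23 genes. In dcKO oocytes 10 of 22 tested were higher and 6 lower than in p20 controls, where 26.6% of all genes were higher and 27.1% lower, so the lower count is about the share of all genes. Tut4, a uridylyltransferase that tags RNA for decay, rose by 3.05, Ncbp1, the large subunit of the nuclear cap-binding complex, by 1.67, Srrt, the cap-complex partner ARS2, by 1.42, and Lsm1, of the cytoplasmic Lsm ring that binds RNA for decay, by 1.25. The stem-loop binding protein gene Slbp was at -0.19 (adjusted p = 0.0531). Exosc10cKO had 4 higher and 2 lower (all genes 3.95% and 3.5%), and p20 Dis3cKO 3 higher and 2 lower (all genes 3.61% and 3.76%).

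In adult RiboMinus libraries 7 of 22 factors were higher in Dis3cKO and 3 lower, where 15.7% of all genes were higher and 12.4% lower, led by Srrt (1.85) and Zfp473 (1.30), a zinc finger protein of the U7 processing complex. In poly(A) libraries of Dis3cKO 2 of 23 were higher at GV, also Srrt (1.79) and Zfp473 (1.23), and 3 lower (all genes 13.6% and 8.33%). At GV3h and at MII 7 were higher and 4 lower, where 22.9% and 27.3% of all genes were higher and 15.7% and 14.8% lower. From GV to MII in controls 9 of 23 were higher and 8 lower, where 22.7% of all genes were higher and 35.8% lower, so the lower count is again about the share of all genes. Relative to other genes, Slbp rose by 1.28 and Mif4gd, the SLBP-interacting translation factor, by 1.41, while Lsm10, a protein of the U7 RNP, fell by 3.94. With ERCC scaling the median of all genes was -2.12 between MII and GV controls. Values of these factors under that scaling are not given here, so a rise per oocyte is not shown.

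The CUT&Tag peak lists bear on the same loci in pooled oocytes. Phosphorylated polymerase II peaks overlapped 0, 1 and 1 of the 70 genes in the 3 adult control lists, 6, 5 and 5 in the p20 control lists, and 3, 1 and 11 in the adult Dis3cKO lists. Over all annotated genes the lists overlapped 13.1% to 36.1%, and over 1440 protein-coding genes spanning less than 1000 bases 0.556% to 0.833% in adult controls, 1.94% to 2.71% in p20 controls and 0.486% to 3.96% in adult Dis3cKO. Of the 61 protein-coding histone genes of such a span they overlapped 0% to 1.64%, 6.56% to 8.20% and 1.64% to 13.1%. The lists differ in length, from 19697 to 122606 peaks, and in their lowest total signal, from 102 to 3002, so the counts are not comparable between lists as levels. Hist2h2bb and Hist2h3b lay under a peak in all 3 p20 control lists.

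H3K27me3 peaks overlapped 15, 11 and 8 histone genes in adult controls, 13, 9 and 14 in adult Dis3cKO, 12, 16 and 12 in p20 controls and 7, 10 and 13 in p20 dcKO oocytes, where 26.4% to 47.0% of all genes were overlapped. The 61 histone genes of short span were set against all 1440 protein-coding genes of short span in the same list, since longer spans meet more peaks. Their share was above in the 3 p20 control lists (13.1% to 18.0% beside 9.03% to 9.38%) and in 2 of 3 adult control lists (14.8% beside 6.46% and 11.5% beside 5.14%), and below in the other (9.84% beside 12.8%). It was below in all 3 adult Dis3cKO lists (8.20% to 14.8% beside 17.6% to 23.3%) and all 3 p20 dcKO lists (8.20% to 13.1% beside 16.25% to 18.5%). The mutant lists covered 153 to 195 Mb and the control lists 66.8 to 152 Mb. Hist1h2bp and Hist1h3i lay under a peak in all 3 lists of both p20 groups. Hist1h1c, Hist1h1e, Hist1h3c and Hist1h4i, which rose in dcKO oocytes, lay under no peak of H3K27me3 in the p20 lists. They also lay under no polymerase II peak in the p20 control lists. The samples include no polymerase II list of p20 dcKO oocytes. Other genes called higher in dcKO lay under H3K27me3 peaks: Hist3h2ba in 3 of 3 p20 control and 0 of 3 dcKO lists, Hist1h2bp in 3 and 3, and Hist1h1b in 2 and 2. Differences in peak counts between groups were not tested.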

How the data were processed

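The authors deposited raw counts per gene for each single-oocyte library and, for CUT&Tag, peak lists with the peak's total signal. Per the submitters' processing notes, the tools used were cutadapt 2.5, FastQC 0.11.8, STAR 2.7.2a, SAMtools 1.9, HTSeq 0.9.1, DESeq2 1.24.0 and SEACR, with mm10; how multi-mapping reads and strand were counted is not given in the sources used here. Per the labels, CUT&Tag reads were sampled to a fixed number without deduplication. The IgG samples were not analysed here.

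Counts were tested over all genes with edgeR 4.0.16 (quasi-likelihood test, TMM scaling, filterByExpr, Benjamini-Hochberg adjustment, threshold 0.05) in R 4.3.3, with all groups of an assay and age in 1 fit, ERCC and non-gene rows left out of library sizes. CPM are per 1000000 gene counts. DESeq2 1.42.0, ERCC scaling, no filter, only the groups compared, replicate blocks and counts summed per title tag were alternatives; sets of libraries were left out after seeing the data. Peaks were overlapped by at least 1 base with RefSeq spans, and the total signal only ranked peaks within a list. On simulated data the test recovered 43.69% of genes changed by 1 log2 unit and 85.87% of those changed by 2 in the poly(A) GV comparison, and 62.14% and 80% in the p20 Dis3cKO comparison. Genes were named by size of change past the threshold, up to 6 each way, and by abundance; Hist1h2ac, Hist1h2bh, Hist1h2aa, Hist1h2ba and other genes printed for contrast were chosen after their values were seen. The 70 genes and the lists were chosen with earlier results of these data known.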

Additional observations from a re-analysis of the deposited data

Results flagged for a closer look

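Dixon's ratio was computed 54 times, for the share of all histone genes and of each class in every group of 8 libraries, and was past its limit 7 times, where chance gives about 1 in 20. The shares of a group are not independent, and 4 of the 7 are those of 1 library. Library AM1713_1 of adult Dis3cKO stood above the others of its group in its share of all histone genes (0.382%, the next at 0.230%), of H1 (0.168%), of H3 (0.124%) and of H4 genes (0.0515%). Also apart were the H2A share of poly(A) GV control 4 (0.00442%), the H3 share of p20 Dis3cKO 2_3 (0.0314%) and the H1 share of Exosc10cKO 2_4 (0.103%).

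For 12 results the Dis3cKO effect differed between stages or assays by an interaction term in edgeR, as a log2 difference. From GV to GV3h in poly(A) libraries Hist1h1a differed by -1.08. From GV to MII Hist1h1a differed by -1.54, Hist1h4a by 1.55, Hist1h2bc by 1.64, Hist1h4h by 2.58 and Hist4h4 by 4.78. From p20 to adult GV Hist1h3e differed by -3.67 and Hist1h4c by 1.20. Between RiboMinus and poly(A) GV libraries Hist1h4c differed by -1.73, Hist1h4h by -1.67, Hist1h2ac by -1.46 and Hist1h2bj by -1.23. No cause was tested.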

How the results depend on the processing

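Of 228 values of the main results under alternatives, 185 stayed within the limits, 42 moved and 1 reversed, a share ratio counting as reversed only where it exceeded 1 SD between libraries (smaller ratios changed sign too, such as GV3h Dis3cKO); of 841 values for single genes, 758 kept their direction and call, 78 lost the call and 5 reversed. The causes were not tested. Counts of calls under an alternative are given without the share of all genes called in the same fit. They do not set histone genes apart from other genes. With ERCC scaling the number of histone genes called was 25 instead of 13 for control MII against GV, 3 instead of 8 for Dis3cKO GV3h against GV, 24 instead of 13 for adult against p20 controls, 2 instead of 4 for the Dis3cKO effect between assays, 8 instead of 5 for that between MII and GV, 0 instead of 1 for that between GV3h and GV (4 with an unadjusted p under 0.05; DESeq2 called 2) and 1 instead of 2 for that between adult and p20. Reversed were Hist1h1a in control MII against GV (-1.04), Hist4h4 in Dis3cKO MII against GV (-0.15), and Hist1h1e (-0.081), Hist1h4a (-0.24) and the histone share (log2 ratio -0.92) between adult and p20 controls. The log2 ratio of the share moved to -3.10 (control MII against GV), -2.10 (Dis3cKO MII against GV), 0.029 (adult Dis3cKO) and 4.34 (between assays).

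Fitted on only the groups compared, 14 genes instead of 9 were called at GV, 12 instead of 7 at GV3h, and 4 for the effect between GV3h and GV and 4 for that between adult and p20. With Dis3cKO numbers above 8 only, 2 were called at GV, 2 for GV3h against GV, 11 instead of 20 for MII against GV, and 0 for the effect between GV3h and GV (4 with an unadjusted p under 0.05), and Hist4h4 at GV3h reversed to -0.20. With numbers 1 to 8 only, 14 were called at GV. With dcKO tag 2 only, 21 instead of 33 were called against Dis3cKO and 9 instead of 23 against Exosc10cKO. With counts summed per tag, edgeR called 0 for adult Dis3cKO (9 with an unadjusted p under 0.05), 2 for p20 Dis3cKO, 2 for adult against p20 controls and 0 for the effect between them (7 with an unadjusted p under 0.05). Without the most abundant gene the log2 ratio of the share was 0.85 instead of 0.31 at GV, 0.31 instead of -0.22 at GV3h, -0.92 for control MII against GV and 3.10 between assays.

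Counting only peaks above the median total signal, the median number of histone genes under an H3K27me3 peak was 7 instead of 11 in adult controls, 6 instead of 13 in adult Dis3cKO and 4 instead of 10 in p20 dcKO, and under a polymerase II peak 1 instead of 3 in adult Dis3cKO. Within 1 kb it was 16 for H3K27me3 in dcKO, and 2 instead of 1 and 14 instead of 3 for polymerase II in adult controls and Dis3cKO. Leaving out 1 list at a time it ran from 0.5 to 1 in adult controls and from 2 to 7 in adult Dis3cKO.

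The numbers were not taken to pair the libraries: in none of 21 pairs of groups did every same-number correlation exceed 0.1. They ran from -0.43 to 0.55, with 5 of 8 over 0.1 between GV control and Dis3cKO (median 0.138, other pairs -0.0036) and 4 of 8 between p20 Exosc10cKO and dcKO (median 0.101, other pairs -0.022). With the number as a replicate block, 10, 9 and 12 histone genes were called for Dis3cKO at GV, GV3h and MII, 26 for dcKO, 13 for Exosc10cKO and 5 for p20 Dis3cKO. The block moved no count of calls by over 1.5 times. Low counts limit the 25 genes never tested.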
